A study of Mus musculus with 18 samples.

Results

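Glycolysis and hypoxia response genes were followed in RAW cells, a mouse macrophage-like line, that were stimulated with R848 in the presence or absence of apilimod. The set held 33 genes: 19 that take up glucose, carry out or steer glycolysis or export lactate, the transcription factor gene Hif1a, and 13 other genes known as targets of hypoxia-inducible factor (HIF). Members were chosen by name, with earlier results of these data known, and a gene was read from the probe sets annotated to it alone. Its value was that of the probe set with the highest mean. Of the 33 genes, 30 were measured, among 18161 genes on the array with such a probe set. After a filter on dim probe sets (intensity above 18.1 on at least 3 arrays), 28 members entered the tests, among 12248 genes. The prolyl hydroxylase genes Egln3 and P4ha2 did not pass the filter, being above it on 1 and 0 of the 18 arrays. Gpi1, Gapdh and Eno1 were not analysed here, since no probe set carried their symbol alone.

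The stimulated arms were R848 with apilimod (1 uM), R848 with API09 (1 uM) and R848 alone, each with 1 array at 1, 3, 7 and 22 h. The unstimulated arm was medium, with 1 array at each of these hours and 2 arrays at 0 h. R848 activates Toll-like receptor 7 in mouse cells and was given at 0.1 mM per the labels, which is high for such an agonist and may be an error of unit. Apilimod inhibits the lipid kinase PIKfyve, and the series design calls API09 its inactive analog. All cells were in DMEM, and the labels give no oxygen level. Since no label describes separate cultures, a p-value reflects how far arrays of a pair differ, a spread that may be technical. The exception is the fit over 1 to 22 h used below. Its spread also holds changes of the arm differences between hours. The small number of arrays limits the precision.

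Within an hour, the R848 and R848+API09 arrays served together as R848 controls, and their difference, with that of the 0 h arrays, gave the spread. All 11 macrophage markers were above the filter on all 18 arrays, Lyz2 and Cd68 among them. Of the other lineages' markers, 5 of 17 were above it on all arrays, and no such value passed 68.2 intensity units. At 22 h the stimulated arrays were dim. Their upper quartiles were 100.9 with apilimod, 87.0 with API09 and 103.6 with R848 alone, against 110.5 to 118.6 elsewhere. Control probe sets for 18S ribosomal RNA were brightest on the API09 arrays of 22 and 7 h. Their mean log2 intensity was 10.53 and 10.14 there, against 7.94 to 9.45 on the other arrays. Both arrays are among the R848 controls, and the effect of this on the results was not tested. Differences are on the log2(intensity + 16) scale, ± SE, and a gene was called at an adjusted p of 0.05 in limma's moderated test. Rose, fell and like words refer to the arm compared at the same hour, unless a change over time is named. The 16 added understates changes of dim genes.

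Glycolysis turns glucose into pyruvate, which is reduced to lactate or passed to the mitochondria, and activated macrophages are known to lean on it. HIF-1 is made of the Hif1a product and a constitutive partner. In oxygen the Hif1a product is hydroxylated by prolyl hydroxylases such as that of Egln1 and then degraded. Inflammatory signals also raise Hif1a transcription, and HIF-1 binds a short element with the core ACGTG at its targets.

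That core was common before the starts of the members. In the RefSeq promoters (GRCm38.p6), searched over the 250 bases before the gene start on both strands, ACGTG occurred in 20 of the 29 members with a promoter entry, or 69.0%, a gene with several entries counting once. It occurred in 9 of 16 glycolysis members, in 10 of 12 other targets and in Hif1a. The share was 24.3% over the 9942 tested genes with an entry and 18.5% over the 27025 genes of the table. The members were chosen as known HIF targets, so this share describes the choice. The E-box CACGTG, which contains the core, was found in 4 of 29 members, 13.8%, against 9.70% of the tested genes. The 4 members below are shown because they held the most places with the core, ties going to the largest apilimod difference. Capitals mark ACGTG or its reverse complement CACGT, both strands of a CACGTG counting as 1 place, and each run ends 1 base before the gene start.
Ldha: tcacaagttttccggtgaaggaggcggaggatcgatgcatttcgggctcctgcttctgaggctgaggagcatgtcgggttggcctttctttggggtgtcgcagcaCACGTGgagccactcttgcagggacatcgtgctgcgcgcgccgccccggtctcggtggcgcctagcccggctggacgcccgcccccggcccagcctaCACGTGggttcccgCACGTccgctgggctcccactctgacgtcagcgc
Ankrd37: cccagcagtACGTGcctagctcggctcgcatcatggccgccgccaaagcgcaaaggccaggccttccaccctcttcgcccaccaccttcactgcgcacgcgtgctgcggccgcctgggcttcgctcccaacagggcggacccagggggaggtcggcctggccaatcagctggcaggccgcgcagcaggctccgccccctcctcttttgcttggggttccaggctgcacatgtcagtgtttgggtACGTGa
Hk2: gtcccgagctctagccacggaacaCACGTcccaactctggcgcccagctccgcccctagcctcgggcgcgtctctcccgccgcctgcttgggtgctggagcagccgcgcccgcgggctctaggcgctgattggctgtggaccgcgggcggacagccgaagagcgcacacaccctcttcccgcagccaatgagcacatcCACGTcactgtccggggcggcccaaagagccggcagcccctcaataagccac
Hif1a: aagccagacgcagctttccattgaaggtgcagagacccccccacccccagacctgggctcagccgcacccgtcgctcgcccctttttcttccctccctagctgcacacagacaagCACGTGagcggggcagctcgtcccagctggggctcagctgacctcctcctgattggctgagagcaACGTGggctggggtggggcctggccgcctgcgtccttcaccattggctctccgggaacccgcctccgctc

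The Ldha run lies at chr7:46845554-46845803, plus strand, and held 3 places, whose first bases on the printed strand lie 145, 48 and 34 bases before the start. It belongs to 1 of 2 starts listed for the gene, which encodes lactate dehydrogenase A. The Ankrd37 run lies at chr8:45999851-46000100, minus strand, with places 241 and 6 bases before the start. Ankrd37 encodes an ankyrin repeat protein. The Hk2 run lies at chr6:82774455-82774704, minus strand, with places 226 and 52 bases before the start. Hk2 encodes hexokinase 2, which phosphorylates glucose. The Hif1a run lies at chr12:73907617-73907866, plus strand, with places 135 and 70 bases before the start. These 4 genes had the core in common and differed in their values, as given below: Ldha moved little, Ankrd37 was lower with R848 at 3 to 22 h, and Hk2 was higher with it. A match is a run of letters, and binding was not measured.

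**Figure D1:**
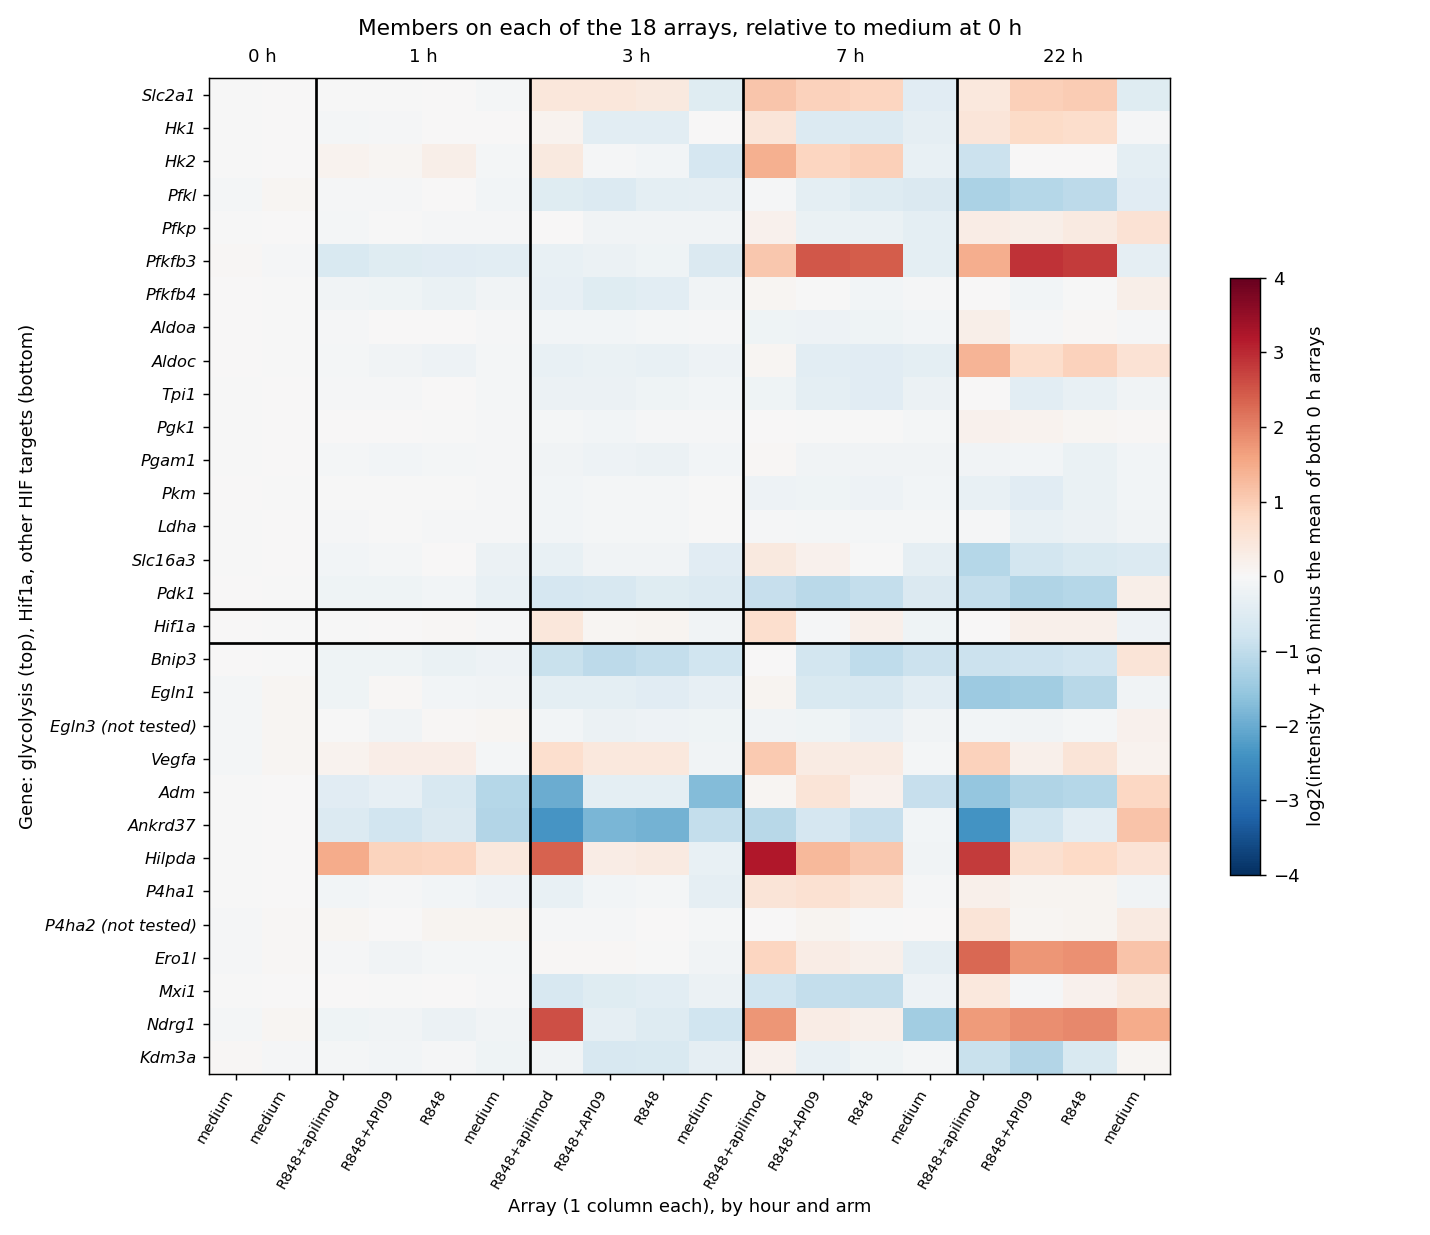
Each column is 1 of the 18 arrays, ordered by hour and arm, and each row is 1 of the 30 measured members. Colour gives log2(intensity + 16) minus the mean of both medium arrays at 0 h. With apilimod Ndrg1 is red at 3 h and Hilpda at 3, 7 and 22 h, Pfkfb3 is red in the stimulated arms at 7 and 22 h, and the rows from Tpi1 to Ldha are nearly white.

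The members varied unequally among themselves. Over the 18 arrays the log2 range had a median of 1.14 over the 16 glycolysis members and 1.58 over the 11 tested targets, beside 0.86 over all 12248 tested genes. It was above 1 in 8 of the 16 and 10 of the 11, beside 41.2% of all tested genes. The widest ranges were those of Ndrg1 (3.97), Ankrd37 (3.53), Pfkfb3 (3.50) and Hilpda (3.49). At the other end stood 6 enzymes of the core pathway: aldolase A (Aldoa), triosephosphate isomerase (Tpi1), phosphoglycerate kinase (Pgk1), phosphoglycerate mutase (Pgam1), pyruvate kinase (Pkm) and Ldha. Their ranges were 0.29 to 0.47, and on every array each was brighter than at least 98.7% of the tested genes. How far such bright signals are compressed on the arrays was not tested.

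R848 raised the glucose transporter gene, the second hexokinase gene and, late, the gene of a phosphofructokinase activator, while several HIF targets were lower than in medium at 22 h. At 1 h no member was called between the R848 controls and medium (R848 controls, 2 arrays; medium, 1 array), with 5 of 28 at an unadjusted p under 0.05. Over all tested genes 0.629% were higher and 0.0653% lower at 1 h. At 3 h 6 members were higher and 2 lower, against 6.26% and 9.17% of all tested genes. At 7 h 10 were higher and 3 lower, against 11.4% and 18.5%. At 22 h 8 were higher and 10 lower, against 16.5% and 29.0%. As shares of the 28 members, 21.4%, 35.7% and 28.6% were higher at these hours, and 7.14%, 10.7% and 35.7% lower. The higher shares were above those of all genes at each of these hours, and the lower share at 22 h was near it. Since the members were chosen with earlier results known, these shares describe the chosen set. The median member difference was -0.04, 0.02 and -0.09 at 3, 7 and 22 h, beside -0.03, -0.04 and -0.03 over all tested genes. Without the R848 or the R848+API09 array of 22 h, whose pair adds to the spread, 14 members were called at 3 h. With quantile normalization 3248 genes were higher and 2962 lower at 22 h, against 2024 and 3554 as deposited, and the member counts there were 11 and 10.

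**Figure D2:**
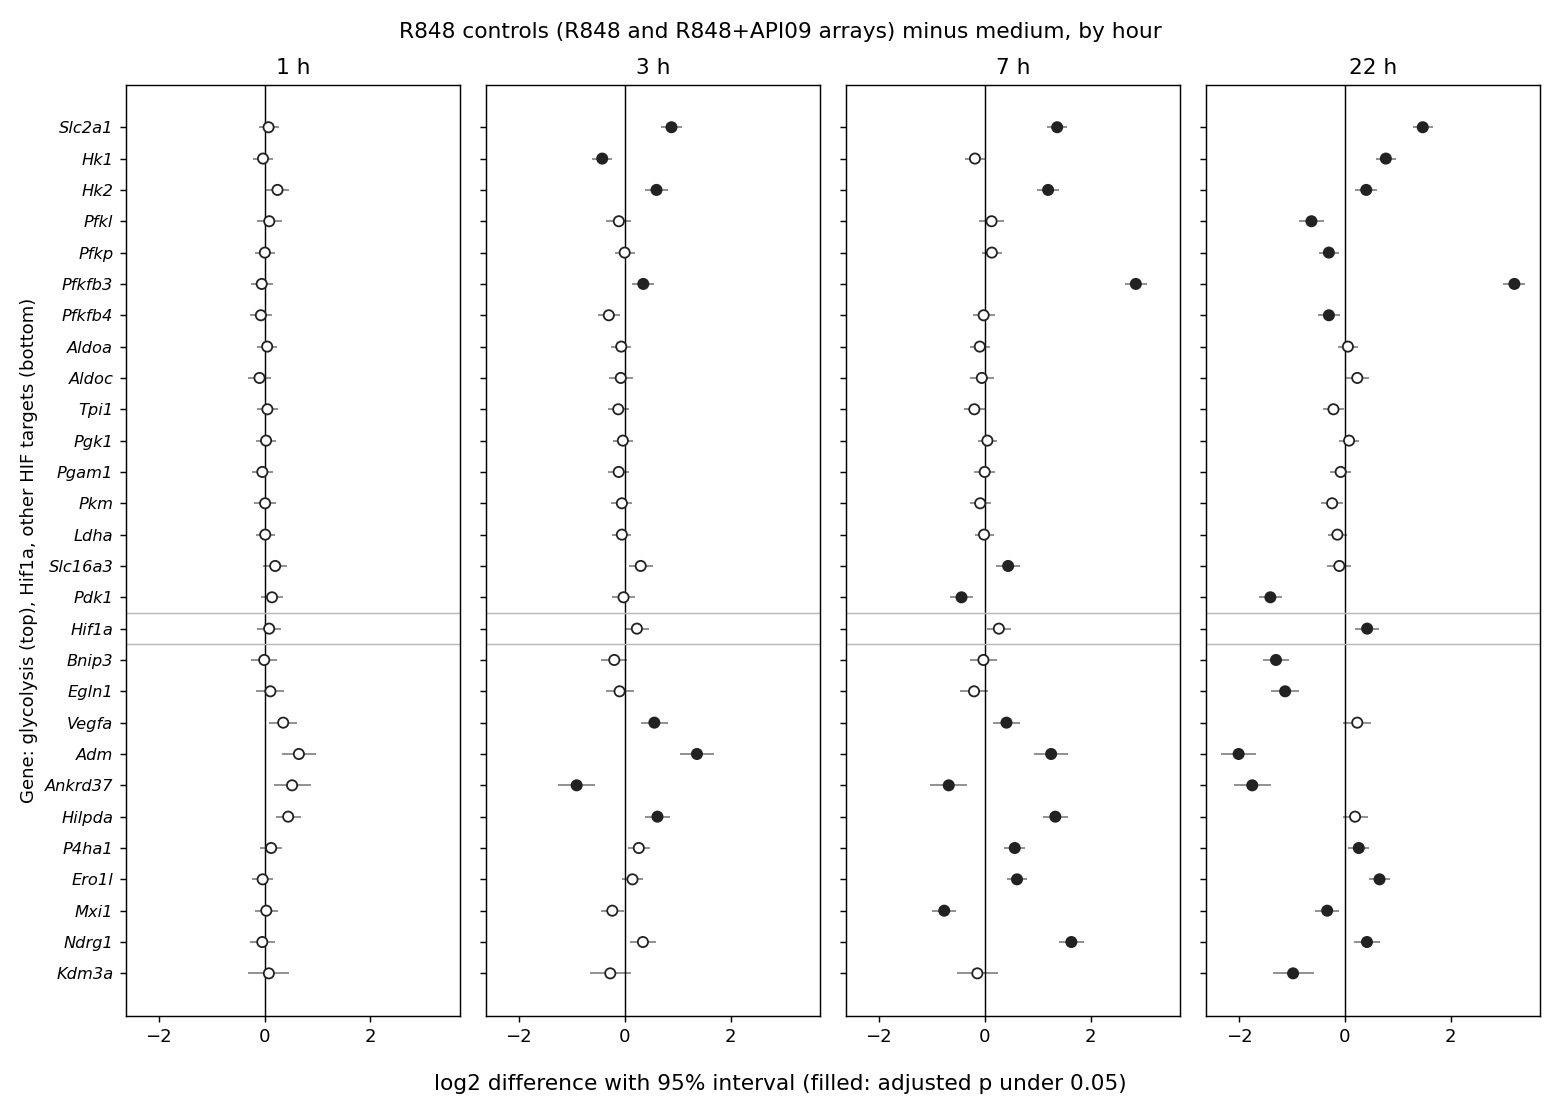
The 4 panels give, for 1, 3, 7 and 22 h, the log2 difference of the R848 controls minus medium for the 28 tested members, with 95% intervals. Filled points were called. Slc2a1 lies to the right of 0 from 3 h and Pfkfb3 reaches 2.85 and 3.20 at 7 and 22 h, while Adm changes side between 7 and 22 h.

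The glucose transporter gene rose at 3 h and was still high at 22 h. Slc2a1 encodes GLUT1, the main glucose transporter of many cells. Its intensity at 0 h was 2477 and 2522. At 3 h it was 3407 with apilimod, 3407 with API09, 3261 with R848 alone and 1798 in medium. At 7 h it was 5410.5 with apilimod, 4786 with API09, 4566 with R848 alone and 1802 in medium. All 3 stimulated arrays stood above the medium array at both hours. At 22 h the values were 3373 with apilimod, 4862 with API09, 5117 with R848 alone and 1788 in medium, again with medium lowest. The R848 controls exceeded medium by 0.88 ± 0.09, 1.37 ± 0.09 and 1.47 ± 0.09 at 3, 7 and 22 h, with limma adjusted p of 3.16e-05, 5.81e-07 and 3.51e-07. The 3 probe sets of the gene gave 1.36 to 1.40 at 7 h.

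Hexokinases commit glucose to the pathway, and both hexokinase genes of the set responded, in different ways. Hk2 was higher in the R848 controls than in medium by 0.60 ± 0.09, 1.20 ± 0.09 and 0.40 ± 0.09 at 3, 7 and 22 h (adjusted p 0.00109, 3.24e-06 and 0.00502). At 0 h it had 861 and 863. The controls lay near that level at 3 h (836 with API09, 802 with R848 alone) and 22 h (872 and 868), while medium had 534 and 654. The Hk2 intensity at 7 h was 2316 with apilimod, 1568 with API09, 1698 with R848 alone and 703 in medium. At that hour all 3 stimulated arrays were above medium, and the apilimod array was highest. Hk1, the more widely expressed hexokinase, fell by 0.42 at 3 h and rose by 0.77 ± 0.08 at 22 h (adjusted p 0.00467 and 3.2e-05). At 22 h its intensity was 833 with apilimod, 1014 with API09, 975 with R848 alone and 575 in medium, so medium was lowest.

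Pfkfb3 makes the sugar phosphate that activates phosphofructokinase, the pacing step of glycolysis. Its intensity was 98.3 and 89 at 0 h and, at 7 h, 214 with apilimod, 601 with API09, 569 with R848 alone and 67.2 in medium. At 22 h it was 284 with apilimod, 794 with API09, 742 with R848 alone and 69.2 in medium. Both control arrays stood far above medium at both hours, and the apilimod array lay between medium and the controls. The R848 controls exceeded medium by 2.85 ± 0.09 at 7 h and 3.20 ± 0.09 at 22 h (adjusted p 2.71e-09 and 1.07e-09), the largest differences among the members in this comparison at those hours. The second probe set gave 2.34 and 2.26. The call of 0.35 at 3 h was near the threshold, at an adjusted p of 0.0257 that ran from 0.00810 to 0.402 over 17 alternative settings. The related Pfkfb4 fell by 0.30 at 22 h, but its value with quantile normalization was -0.04 (adjusted p 0.691).

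Other glycolysis members responded less or in the opposite direction. The lactate exporter gene Slc16a3 was higher than in medium by 0.44 ± 0.10 at 7 h, when its intensity was 1117 with apilimod, 948 with API09, 835 with R848 alone and 651 in medium. At 0 h it had 847 and 849. The phosphofructokinase genes Pfkl and Pfkp were lower at 22 h, with differences of -0.63 ± 0.11 and -0.30 ± 0.09. Pdk1, whose kinase shuts pyruvate dehydrogenase and so keeps pyruvate out of the mitochondria, fell by 0.44 at 7 h and fell by 1.41 at 22 h (adjusted p 0.00473 and 1.04e-06). Its intensity at 22 h was 179.6 with apilimod, 149 with API09, 155 with R848 alone and 429 in medium, with every stimulated array below medium. Aldoc, Aldoa, Tpi1, Pgk1, Pgam1, Pkm and Ldha were not called at any hour. At 22 h Pkm (-0.24) and Tpi1 (-0.21) were called under several alternative settings, such as trended and robust variances (adjusted p 0.000998 and 0.00188). Ldha was called there with those variances (adjusted p 0.00615). The Ldha difference at 22 h was -0.14 ± 0.08 (95% interval -0.32 to 0.04), and that of Pgk1 was 0.08 ± 0.08 (-0.10 to 0.26). For Aldoc the probe sets split at 22 h, with 0.24 from the brighter and -1.21 from the dimmer. It was called higher there with quantile normalization (0.23, adjusted p 0.0417) and lower with the mean over probe sets (-0.49, adjusted p 0.00206).

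Hif1a itself was modestly higher with R848 at 22 h. Its intensity was 1761 and 1727 at 0 h and 1765 with apilimod, 2027 with API09, 2006 with R848 alone and 1502 in medium at 22 h, so that each stimulated array exceeded medium. The difference of the R848 controls from medium was 0.23 ± 0.10 at 3 h, 0.27 ± 0.10 at 7 h and 0.42 ± 0.10 at 22 h, called at 22 h only (adjusted p 0.188, 0.0782 and 0.00666). With the mean over its probe sets the value at 22 h was 0.24, at an adjusted p of 0.0583.

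Of the 11 tested HIF targets, R848 raised 3, 6 and 3 and lowered 1, 2 and 6 at 3, 7 and 22 h. Of all tested genes 6.26%, 11.4% and 16.5% were higher and 9.17%, 18.5% and 29.0% lower. The lowered shares of the targets at 3 and 7 h were near those of all genes. Vegfa, which encodes an angiogenic growth factor, rose by 0.56 ± 0.12 at 3 h and 0.41 ± 0.12 at 7 h. At 22 h it was not called, and its probe sets split, with 0.23 and -0.52. With quantile normalization it was called higher there (0.48). The call at 7 h was lost without the R848+API09 array (adjusted p 0.0661) or the R848 array (adjusted p 0.0761) of that hour. Hilpda, which encodes an inhibitor of the triglyceride lipase on lipid droplets, rose by 0.62 ± 0.11 and 1.33 ± 0.11 at 3 and 7 h. At 22 h it was not called (0.19), but it was with quantile normalization (0.36). P4ha1, a collagen prolyl hydroxylase gene, rose by 0.57 ± 0.09 at 7 h. Its call at 22 h (0.26) was lost under 9 of 17 settings. Ero1l (now Ero1a), which encodes an oxidase that forms disulfides in the endoplasmic reticulum, rose by 0.61 ± 0.09 at 7 h. At 22 h its probe sets gave 0.66, -0.15 and 0.04, and the mean over them left no call (0.18, adjusted p 0.0737).

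Adm, which encodes the vasodilator peptide adrenomedullin, moved in opposite directions at early and late hours. Its intensity was 181 and 187 at 0 h. At 3 h it was 35 with apilimod, 137 with API09, 138 with R848 alone and 43.6 in medium. At 22 h it was 52.2 with apilimod, 71.7 with API09, 75 with R848 alone and 343 in medium. Both control arrays were above medium at 3 h, and at 22 h every stimulated array was below it. The R848 controls differed from medium by 1.37 ± 0.15 at 3 h, 1.25 ± 0.15 at 7 h and -2.01 ± 0.15 at 22 h (adjusted p 7.25e-05, 6.89e-05 and 1.92e-06), and its 2 probe sets gave values of the same sign at all 3 hours.

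Ankrd37 was below medium at 3, 7 and 22 h. Its intensity was 229.5 and 232 at 0 h. At 3 h it was 32.3 with apilimod, 52.9 with API09, 50.8 with R848 alone and 111 in medium. At 22 h it was 31 with apilimod, 125 with API09, 170.2 with R848 alone and 528 in medium, with medium highest at both hours. The R848 controls differed from medium by -0.91 ± 0.16, -0.68 ± 0.16 and -1.75 ± 0.16 at 3, 7 and 22 h (adjusted p 0.00222, 0.00698 and 8.92e-06). Bnip3, which encodes a mitochondrial protein that promotes mitophagy, had 1588 with apilimod, 1642 with API09, 1710.0 with R848 alone and 4149.8 in medium at 22 h, and fell by 1.30 in the R848 controls (adjusted p 6.67e-06). Egln1, which encodes the main oxygen-sensing prolyl hydroxylase, fell by 1.13 (adjusted p 3.05e-05), and Kdm3a, a histone demethylase gene, by 0.98 (adjusted p 0.00105). Mxi1, whose product antagonises Myc, was below medium by 0.76 at 7 h and by 0.33 at 22 h. At 22 h it had 517 with API09, 606 with R848 alone and 709 in medium, beside 538 and 540 at 0 h.

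Some of the targets that were lower with R848 at 22 h rose over time in medium. From 0 h to 22 h in medium 9 members were higher and 5 lower, against 11.2% and 10.8% of all tested genes. Among the 11 targets 7 were higher and 0 lower, with a median of 0.51. Among the 16 glycolysis members 2 were higher and 5 lower, with a median of -0.12. The medium array at 22 h minus the arrays at 0 h gave 1.47 ± 0.11 for Ndrg1, 1.14 ± 0.16 for Ankrd37, 1.14 ± 0.09 for Ero1l, 0.84 ± 0.15 for Adm, 0.54 ± 0.11 for Hilpda, 0.51 ± 0.11 for Bnip3 and 0.39 ± 0.10 for Mxi1. Of the 6 targets lower with R848 at 22 h, these include Adm, Ankrd37, Bnip3 and Mxi1, whereas Egln1 and Kdm3a were not called in medium (-0.13 ± 0.12 and 0.08 ± 0.18). Among glycolysis members Pfkp and Aldoc each rose by 0.59, and Slc2a1, Hk2, Pfkl, Pfkfb3 and Slc16a3 were lower, with differences of -0.48, -0.39, -0.46, -0.36 and -0.56. The calls of Hk2, Mxi1, Pfkl, Pfkfb3 and Bnip3 were lost without 1 of the 0 h arrays, with adjusted p of up to 0.0689, 0.0845, 0.0859, 0.122 and 0.0504. This comparison has 1 array at 22 h, and those of the R848 controls with medium at 22 h use the same array. Conditions in the dish, such as oxygen, glucose or cell density, were not measured.

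Ndrg1, a stress- and hypoxia-induced gene, also rose over time in medium but was higher, not lower, with R848 at 22 h. Its intensity was 445 and 503 at 0 h. At 22 h it was 1578 with apilimod, 1745 with API09, 1845 with R848 alone and 1339 in medium. The medium arm had been at 269 and 169.7 at 3 and 7 h. At 22 h the arms lay closer together than at 3 or 7 h. The R848 controls exceeded medium by 1.64 ± 0.11 at 7 h and by 0.42 ± 0.11 at 22 h (adjusted p 9.45e-07 and 0.00944).

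Apilimod, added to R848, raised Hilpda, Ndrg1, Hk1 and Hk2 at 3 and 7 h and Bnip3, Egln1, Vegfa and Ero1l at 7 h, and lowered Pfkfb3 at 7 and 22 h. These comparisons share the R848 controls with those above, so the values stand side by side and their likeness is no result. At 1 h no member was called against the R848 controls, as was no gene of all 12248, with 1 member and 165 genes at an unadjusted p under 0.05. At 3 h 4 members were higher and 1 lower, against 5.08% and 4.13% of all tested genes. At 7 h 13 were higher and 1 lower, against 9.81% and 9.82%. At 22 h 7 were higher and 6 lower, against 20.2% and 14.3%. The higher members made up 14.3%, 46.4% and 25% of the 28 at these hours, and the lower ones 3.57%, 3.57% and 21.4%. The share of higher members stood farthest above that of all genes at 7 h, and both shares at 22 h were near those of all genes. Here too the shares describe a set chosen with earlier results of these data known. The median member difference was 0.02, 0.28 and 0.03 at 3, 7 and 22 h, beside -0.03, -0.02 and 0.03 over all tested genes. Without the R848 or the R848+API09 array of 22 h, 8 members were called at 3 h.

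**Figure D3:**
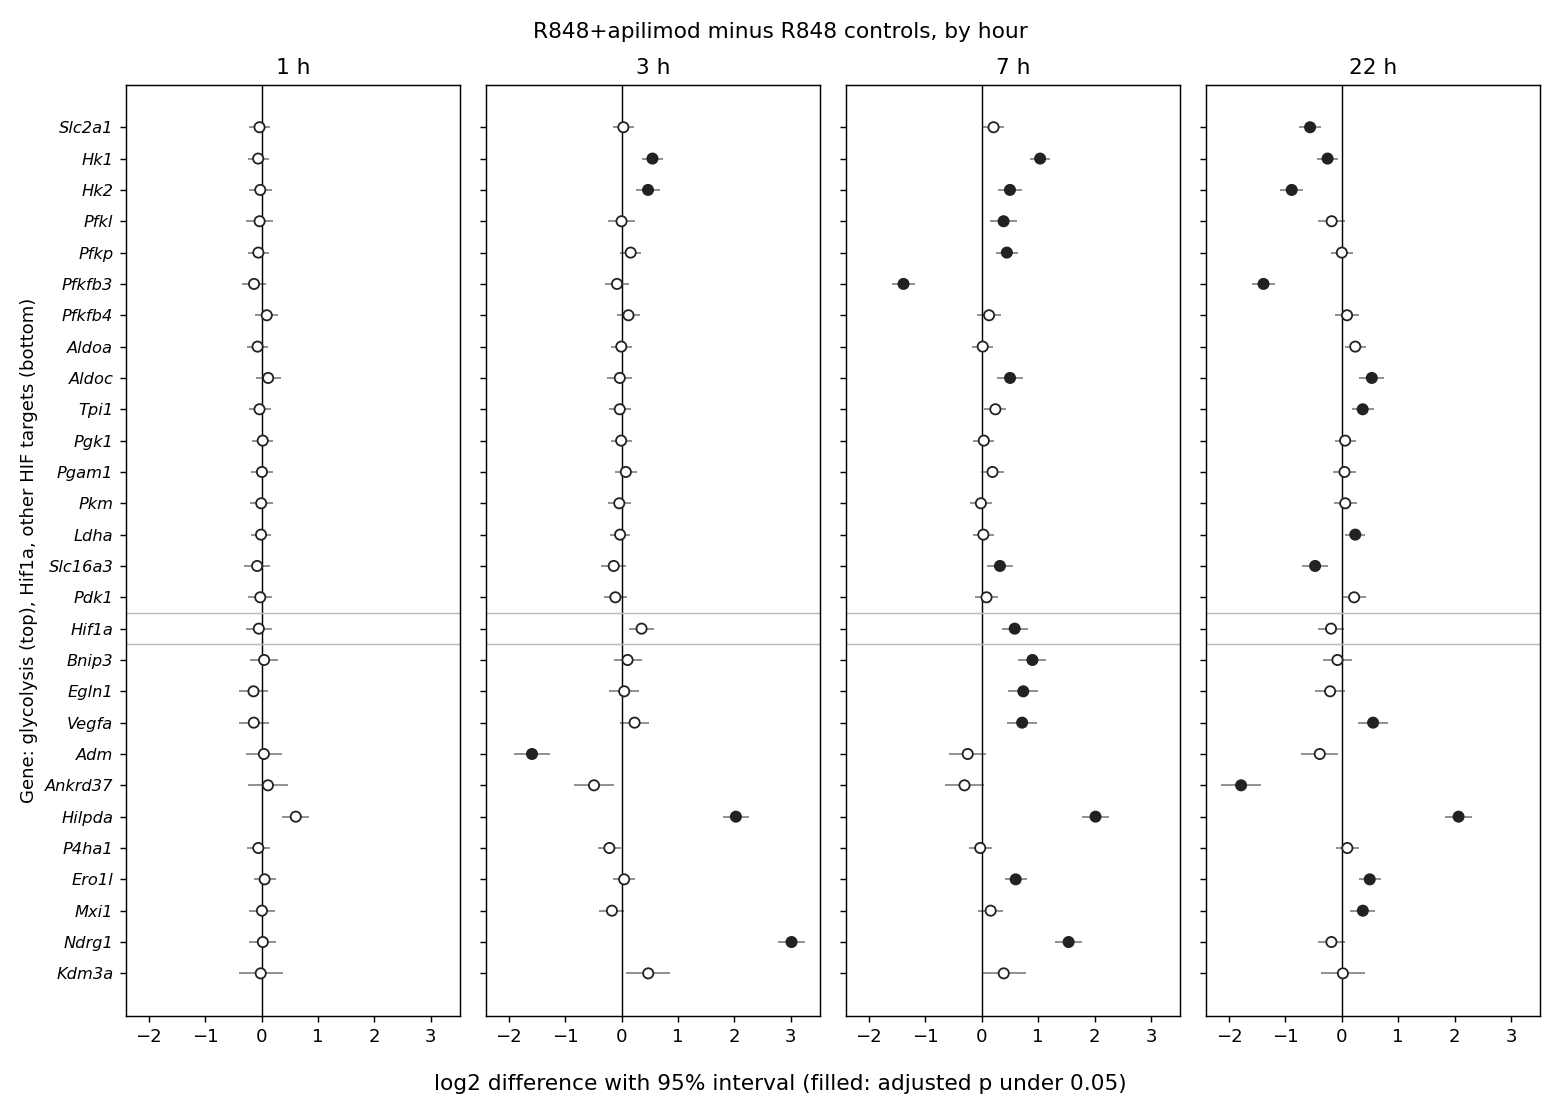
The 4 panels give, for 1, 3, 7 and 22 h, the log2 difference of R848+apilimod minus the R848 controls for the 28 tested members, with 95% intervals. Filled points were called. At 7 h 13 members lie to the right as filled points and Pfkfb3 alone to the left. At 22 h filled points lie on both sides, with Hilpda at 2.07 and Ankrd37 at -1.78.

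Hilpda was the member that apilimod raised to a like extent at 3 h, 7 h and 22 h. Its intensity was 160.1 and 160.1 at 0 h. At 1 h it was 478 with apilimod, 313 with API09, 305 with R848 alone and 222 in medium. At 3 h it was 888 with apilimod, 202 with API09, 210.3 with R848 alone and 128 in medium. The apilimod array was the highest at both hours, with both controls between it and medium. At 7 h the values were 1601 with apilimod, 414 with API09, 355 with R848 alone and 143 in medium, and at 22 h 1211 with apilimod, 260.5 with API09, 293 with R848 alone and 239.7 in medium. R848+apilimod exceeded the R848 controls by 2.03 ± 0.11, 2.02 ± 0.11 and 2.07 ± 0.11 at 3, 7 and 22 h (adjusted p 5.42e-07, 2.15e-07 and 2.02e-07). At 1 h the difference was 0.61 ± 0.11 with a 95% interval of 0.37 to 0.84, which did not pass over all genes (adjusted p 0.982). Hilpda was read by 1 probe set.

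Ndrg1 had the largest apilimod difference of any member, at 3 h. Its intensity at 1 h was 421 with apilimod, 427 with API09, 402 with R848 alone and 427 in medium, all alike. At 3 h it was 2898 with apilimod, 367 with API09, 325 with R848 alone and 269 in medium. At 7 h it was 1663 with apilimod, 581 with API09, 542 with R848 alone and 169.7 in medium. The apilimod array was highest at 3 h and 7 h, and at 22 h, as given above, it lay below both controls. The difference from the R848 controls was 3.01 ± 0.11 at 3 h, 1.54 ± 0.11 at 7 h and -0.18 ± 0.11 at 22 h (adjusted p 3.33e-08, 1.64e-06 and 0.227). Its 5 probe sets gave 2.82 to 3.01 at 3 h.

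The remaining targets differed from each other in hour and direction. Adm at 3 h, given above, was 35 with apilimod, against 137 with API09 and 138 with R848 alone, and fell by 1.59 (adjusted p 3.27e-05). At 7 h its values were 197 with apilimod, 268 with API09, 209 with R848 alone and 90 in medium, and the apilimod difference was -0.25 ± 0.15 (adjusted p 0.321). Bnip3 at 7 h had 2969 with apilimod, 1739 with API09, 1445 with R848 alone and 1613 in medium. Apilimod alone lay above the range of the other arms at that hour, near the 2933 and 2894 of medium at 0 h. The difference of 0.90 ± 0.11 was called (adjusted p 0.000147). At 3 and 22 h Bnip3 differed by 0.11 ± 0.11 and -0.08 ± 0.11 (adjusted p 0.734 and 0.650).

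Egln1 was likewise higher than in the controls at 7 h, by 0.74 ± 0.12, with 209 with apilimod, 119 with API09, 119 with R848 alone and 139 in medium. At 0 h it had 182 and 201. At 22 h Egln1 was not called, but its probe sets gave -0.21 and -0.54, and the mean over both (-0.37) was called. Vegfa rose by 0.72 ± 0.12 at 7 h and 0.55 ± 0.12 at 22 h. Its intensity at 7 h was 255 with apilimod, 148 with API09, 150.1 with R848 alone and 108 in medium, with apilimod highest. At 22 h its second probe set gave 0.11, and the mean over both gave 0.33 (adjusted p 0.0735). Ero1l rose by 0.60 ± 0.09 at 7 h, where all 3 probe sets were positive, and the call at 22 h (0.50) was lost in the mean over probe sets (0.13, adjusted p 0.218). Ankrd37 at 22 h fell by 1.78 (adjusted p 9.31e-06), to an intensity of 31, near the 16 added before the logarithm. Mxi1 rose by 0.37 ± 0.10 at 22 h. P4ha1 was not called in this comparison at any hour, with a difference of -0.03 ± 0.09 at 7 h. At 22 h its probe sets gave 0.10 and 0.46, and the mean over both (0.28) was called just under the threshold. Kdm3a was not called either, at 0.47 ± 0.18, 0.39 ± 0.18 and 0.02 ± 0.18 at 3, 7 and 22 h (adjusted p 0.159, 0.169 and 0.950). With either control array of 22 h left out it was called at 3 and 7 h (adjusted p 0.00302 and 0.00495). At 22 h its value was then -0.26 without the R848+API09 array and 0.30 without the R848 array, both called (adjusted p 0.0482 and 0.0231).

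Hif1a was higher with apilimod at 7 h. Its intensity at 3 h was 2384 with apilimod, 1826 with API09, 1899 with R848 alone and 1584 in medium. At 7 h it was 2778 with apilimod, 1698 with API09, 2008 with R848 alone and 1532 in medium. The apilimod array was highest at both hours. The difference from the R848 controls was 0.35 ± 0.10 at 3 h, 0.58 ± 0.10 at 7 h and -0.19 ± 0.10 at 22 h (adjusted p 0.0603, 0.00174 and 0.185), and its kept probe sets gave 0.58 to 0.72 at 7 h.

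**Figure D4:**
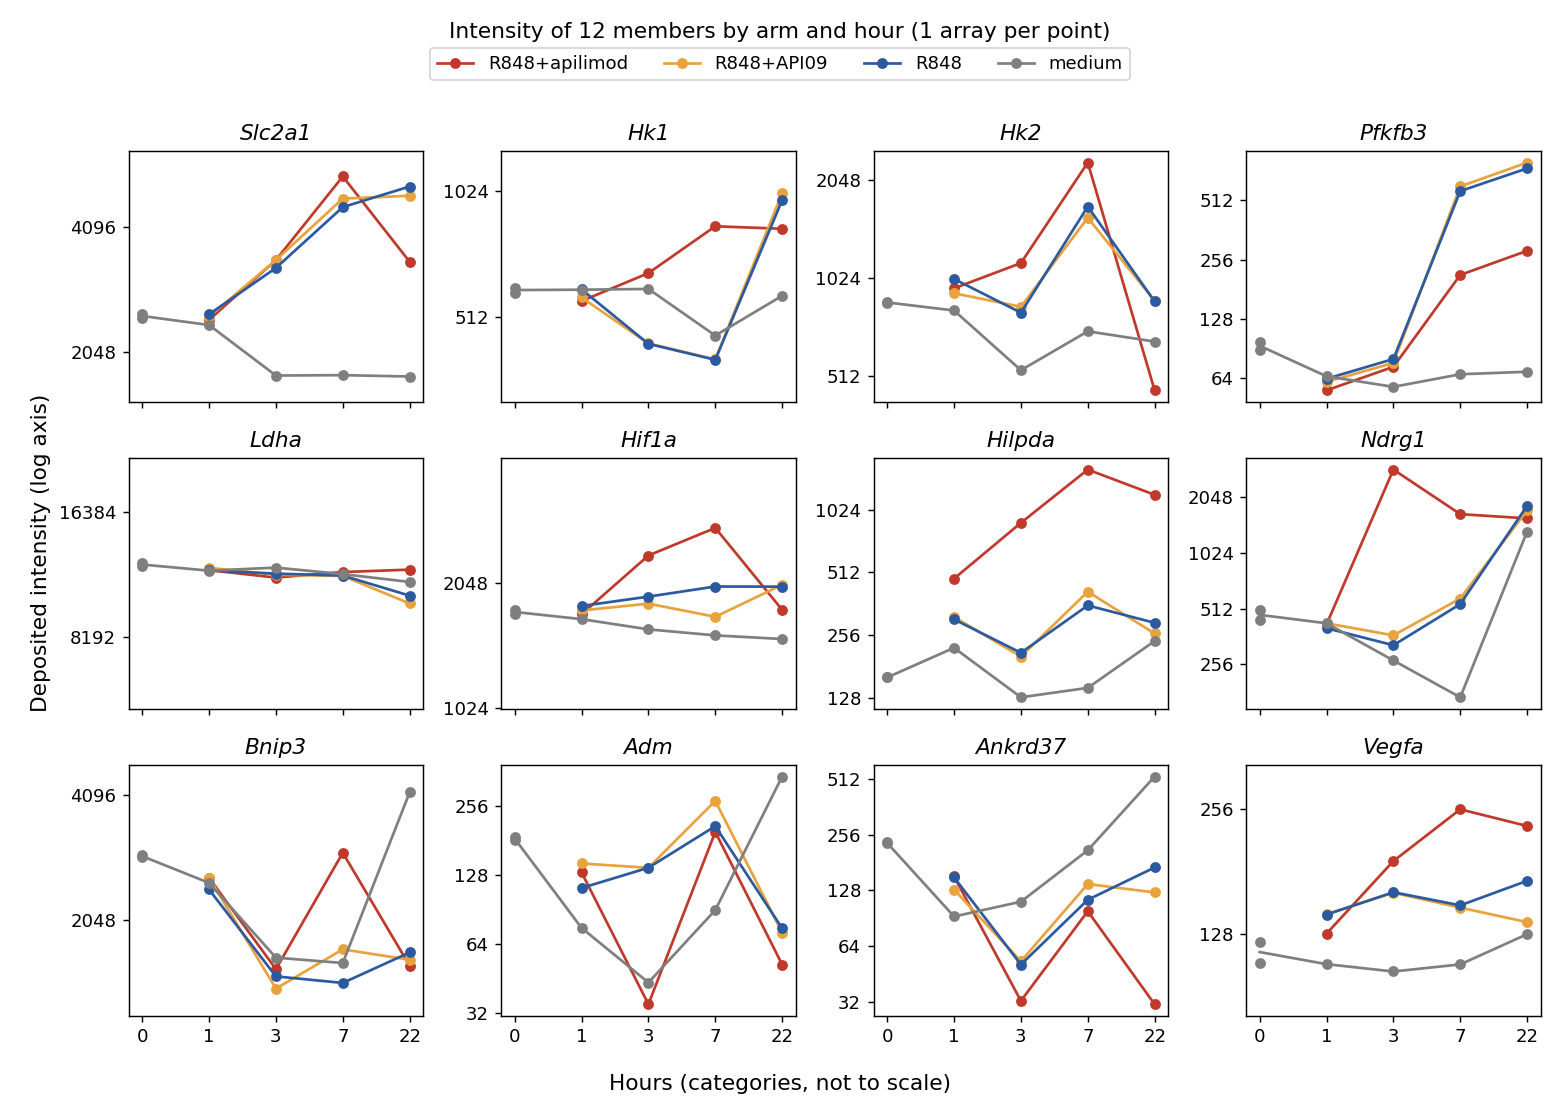
Each panel gives the deposited intensity of 1 of 12 members on a log axis against the hour, 1 point per array, with a line per arm. The hours are categories, not to scale. The apilimod line leaves the others at 3 h in Hilpda and Ndrg1, and in Hk2 it is highest at 7 h and lowest at 22 h. Ldha is flat in all arms.

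Among the 16 glycolysis members 2 were higher and 0 lower at 3 h with apilimod, 6 higher and 1 lower at 7 h, and 3 higher and 5 lower at 22 h, with medians of -0.01, 0.20 and 0.05. Over the 11 other targets these were 2 and 1, 6 and 0, and 4 and 1, with medians of 0.05, 0.60 and 0.02. Of all tested genes 5.08%, 9.81% and 20.2% were higher and 4.13%, 9.82% and 14.3% lower at these hours. The share of glycolysis members higher at 22 h was near that of all genes. The difference between the roles was not tested.

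Hk1 rose with apilimod while it was low in the controls. Its intensity at 3 h was 651 with apilimod, 441 with API09, 440.3 with R848 alone and 597 in medium. At 7 h it was 844 with apilimod, 404 with API09, 403 with R848 alone and 461 in medium. The apilimod array was highest at both hours, and both controls were below medium. The difference was 0.55 ± 0.08 at 3 h and 1.04 ± 0.08 at 7 h (adjusted p 0.00118 and 4.42e-06). At 22 h it was -0.25, a call lost under 11 of 17 settings (adjusted p 0.0122 to 0.247).

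Hk2 was higher with apilimod at 3 and 7 h and lower at 22 h. At 3 h the intensity was 1139 with apilimod, 836 with API09, 802 with R848 alone and 534 in medium. At 22 h it was 463 with apilimod, 872 with API09, 868 with R848 alone and 654 in medium. Apilimod was highest at 3 h and lowest at 22 h, also below medium. The differences were 0.47 ± 0.09, 0.50 ± 0.09 and -0.89 ± 0.09 at 3, 7 and 22 h (adjusted p 0.00775, 0.00268 and 3.62e-05). The call at 3 h was lost without the R848 array of that hour (adjusted p 0.0587).

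Pfkfb3 was the 1 member lower with apilimod at 7 h. With the intensities given above, it fell by 1.39 at 7 h and by 1.39 at 22 h (adjusted p 1.11e-06 and 1.2e-06), and its second probe set gave -1.24 and -0.66. The apilimod arrays nonetheless stood above medium at both hours. At 3 h the difference was -0.08 ± 0.09. Slc2a1 fell by 0.56 at 22 h (adjusted p 0.000483), and at 7 h its difference was 0.21 ± 0.09 (adjusted p 0.127).

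Smaller changes were seen in other enzymes. At 7 h Pfkl rose by 0.39 ± 0.11, Pfkp by 0.45 ± 0.09, Aldoc by 0.50 ± 0.10 and Slc16a3 by 0.32 ± 0.10. The Pfkl call was lost without the R848 array at 7 h (0.34, adjusted p 0.123) and that of Slc16a3 under 9 of 17 settings (adjusted p 0.0183 to 0.228). At 22 h Aldoc rose by 0.53 ± 0.10 and Tpi1 by 0.37 ± 0.09, and Slc16a3 fell by 0.47. Ldha at 22 h was 11899.7 with apilimod, 9869 with API09, 10303 with R848 alone and 11116 in medium, and its call of 0.24 was lost under 10 of 17 settings (adjusted p 9.93e-05 to 0.0795). Aldoa, Pgk1, Pgam1, Pkm, Pfkfb4 and Pdk1 were not called, with differences at 7 h of 0.02, 0.04, 0.19, -0.01, 0.13 and 0.09. At 22 h they were 0.24, 0.06, 0.05, 0.06, 0.09 and 0.22. Aldoa at 22 h lay next to the threshold (adjusted p 0.0514) and was called under several settings, such as without the R848 array of that hour (0.29, adjusted p 0.0101) or with trended and robust variances (adjusted p 0.000519). The 3 kept probe sets of Pdk1 split at 22 h, with 0.22, -0.24 and -0.69, and their mean was called (-0.24, adjusted p 0.0464).

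The apilimod difference itself changed with time in many members. Between 3 and 7 h it rose in 5 members and fell in 2, against 2.24% and 2.52% of all tested genes. Between 7 and 22 h it fell in 11 members and rose in 0, against 8.75% lower and 11.3% higher over all tested genes. The 11 were 6 glycolysis members, Hif1a and 4 targets. The largest changes from 7 to 22 h were those of Ndrg1, by -1.72 ± 0.15, Ankrd37, by -1.48 ± 0.22, and Hk2, by -1.39 ± 0.13 (adjusted p 3.42e-05, 0.000998 and 5.16e-05). Leaving out single arrays moved the 7 calls between 3 and 7 h to 3 (without the R848 array of 3 h) or 10 (without either control array of 22 h). For Hilpda the change was 0.05 ± 0.15 (95% interval -0.28 to 0.39) from 7 to 22 h, which was not called. For Pfkfb3 it was -0.00 ± 0.13 (-0.29 to 0.29). Its second probe set, however, had apilimod differences of -1.24 at 7 h and -0.66 at 22 h.

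Apilimod and API09, related compounds at the same dose, were also compared directly at each hour, over all 12248 genes. No member was called at 1 h, where 1 member had an unadjusted p under 0.05. At 3 h 3 members were higher with apilimod and 1 lower (3.80% and 2.59% of all tested genes). The 7 h arrays gave 11 higher members and 1 lower, beside 8.26% and 7.40% of all genes. Those of 22 h gave 9 and 6, beside 31.0% and 16.8%. With quantile normalization 2986 genes were higher and 3137 lower at 22 h, against 3795 and 2057 as deposited. Hilpda differed by 2.05 ± 0.13, 1.91 ± 0.11 and 2.15 ± 0.10 at 3, 7 and 22 h (adjusted p 1.44e-05, 3.26e-06 and 5.15e-07). Ndrg1 differed by 2.93 ± 0.12 at 3 h and Pfkfb3 by -1.42 ± 0.11 at 7 h. In the fit over 1 to 22 h, with hour as a block and 4 arrays per arm, no member was called and no gene of all tested (0% higher), with 3 members and 1612 genes at an unadjusted p under 0.05. Hilpda stood at 1.68 ± 0.27 there (adjusted p 0.123). In this fit a difference that changes between hours adds to the spread. Without the 1 h arrays, Hilpda (2.04, adjusted p 0.000711) and Vegfa (0.55, adjusted p 0.0244) were called.

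API09 itself differed little from R848 alone in the members before 22 h. No member and no gene of all tested was called at 1, 3 or 7 h, where 0, 0 and 3 members had an unadjusted p under 0.05. The 95% intervals of the API09 difference at 7 h were -0.04 to 0.46 for Hilpda, -0.20 to 0.39 for Ndrg1, -0.17 to 0.33 for Pfkfb3 and -0.36 to 0.13 for Hk2. At 22 h Vegfa fell by 0.30 and Kdm3a by 0.57 with API09 (adjusted p 0.0398 and 0.00834), 2 of 28 members, against 16.5% of all tested genes lower and 3.18% higher. The median over all genes was -0.12 there, on the dim array named above. With quantile normalization 759 genes were higher and 467 lower, against 390 and 2027 as deposited, and the Vegfa value was -0.07 (adjusted p 0.650). Over 1 to 22 h no member and no gene was called between API09 and R848 (0 members and 182 genes at an unadjusted p under 0.05). For R848 against medium over these hours no member was called, against 0.808% of all genes higher and 0.204% lower, and Slc2a1 stood closest at 0.95 ± 0.21 (adjusted p 0.0534).

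Related genes outside the set, also listed with earlier results of these data known, were read for comparison. Over all tested genes, as given above, apilimod raised 5.08%, 9.81% and 20.2% at 3, 7 and 22 h and lowered 4.13%, 9.82% and 14.3%. Of 17 tested other glycolysis genes it raised 2, 4 and 5 (11.8%, 23.5% and 29.4%) and lowered 0, 1 and 2. Among them Eno2, an enolase gene best known from neurons, rose by 1.63 ± 0.19, 3.81 ± 0.19 and 2.22 ± 0.19, more than any member at 7 h. Hk3, a hexokinase gene of myeloid cells, rose by 0.48 ± 0.10, 1.78 ± 0.10 and 1.36 ± 0.10. Of 27 further HIF targets apilimod raised 7, 14 and 8 (25.9%, 51.9% and 29.6%) and lowered 1, 2 and 2, with a median of 0.29 at 7 h, beside 0.60 over the 11 targets of the set. Bhlhe40, which encodes a transcriptional repressor, rose by 1.87 ± 0.11, 2.15 ± 0.11 and 0.84 ± 0.11. Of 15 regulators of the pathway it raised 1, 2 and 2 and lowered 1, 1 and 2. Among these Cited2, whose product competes with HIF for its coactivator, had differences of -2.25 ± 0.08, -1.52 ± 0.08 and -0.86 ± 0.08 (adjusted p 3.5e-08, 2.64e-07 and 1.88e-05). Vhl, whose product marks hydroxylated HIF for degradation, rose by 0.53 ± 0.15 and 0.48 ± 0.15 at 7 and 22 h. In R848 controls against medium, the pentose phosphate genes (6 tested) were lower in 4 at 7 h and 5 at 22 h, with medians of -0.28 and -0.28, where 18.5% and 29.0% of all tested genes were lower. The genes of pyruvate dehydrogenase and the citrate cycle (24 tested) were lower in 7 and 9, shares of 29.2% and 37.5% beside the same background, with medians of -0.23 and -0.22.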

How the data were processed

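Per the labels' protocols, amplified RNA of RAW cells was labelled with biotin and measured on Affymetrix mouse arrays, 1 sample per array. The authors deposited a linear intensity for each probe set, from 3.62 to 22099. How they were summarised and normalized is not given in the sources used here; the submitters' processing notes name limma without a role. Of 45101 probe sets, 34958 had 1 gene symbol, 34754 of which were updated through gene identifiers, 932 had several and were not used, and 64 were controls and left out. No deposited value column was left unmapped.

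The members and lists were chosen with earlier results of these data known. Probe sets entered when at least 3 arrays exceeded 18.1, the median over all values, and log2(intensity + 16) was tested with limma 3.58.1 in R 4.3.3, two-sided, with Benjamini-Hochberg adjustment over 12248 genes. Within hours, every arm had its own mean, except that R848 and R848+API09 shared 1 mean per hour (5 residual degrees of freedom). To compare the compounds at an hour, both had separate means there (4 residual degrees of freedom). Arms with a lone array are taken to vary like the pairs. The fit over 1 to 22 h had a term per arm and a block per hour (10 residual degrees of freedom). Code was tested on simulated data. Values on arrays are given for members called against the R848 controls or medium, largest differences first. Of each other list at most 4 genes per comparison were eligible to be named, those called with the largest differences. Promoters are RefSeq's, GRCm38.p6, and 29 of 30 measured members matched.

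The alternatives were quantile normalization, centring arrays on their median, no filter, a stricter filter (the 75th percentile), the mean over probe sets, a pseudocount of 1, trended and robust variances, a minimum absolute difference of 1, no hour block, and leaving out arrays or hours.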

Additional observations from a re-analysis of the deposited data

Results flagged for a closer look

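The apilimod difference (R848+apilimod minus R848 controls) differed between hours in 18 results, each by limma's test of the change itself at an adjusted p of 0.05. From 7 to 22 h it changed by -1.72 in Ndrg1, -1.48 in Ankrd37, -1.39 in Hk2 and -1.29 in Hk1. The change was -0.98 in Bnip3, -0.94 in Egln1, -0.80 in Slc16a3, -0.78 in Hif1a and -0.77 in Slc2a1. It was -0.57 in Pfkl and -0.44 in Pfkp, both lost under some settings (adjusted p up to 0.115 and 0.0814).

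From 3 to 7 h it changed by -1.47 in Ndrg1, 1.34 in Adm, -1.30 in Pfkfb3 and 0.79 in Bnip3. It changed by 0.69 in Egln1, 0.56 in Ero1l and 0.49 in Hk1, calls lost under 10, 9 and 10 of 17 settings. Each hour has 1 apilimod array, so a change between hours rests on 2 such arrays.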

How the results depend on the processing

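No member value called as reported changed sign under any alternative, and 106 of 136 called member results kept their call under every alternative except the minimum difference of 1. Results not called as reported are outside this count. Among those, Aldoc for R848 against medium at 22 h was called in opposite directions under different alternatives, as was Kdm3a for apilimod at 22 h. That minimum left 1, 6 and 7 members for R848 against medium at 3, 7 and 22 h, 3, 4 and 3 for apilimod against the R848 controls, 4 and 3 for apilimod against API09 at 7 and 22 h, and 0 for API09 against R848 at 22 h. It left 3 for medium at 22 h against 0 h, 3 for the change from 3 to 7 h and 4 for that from 7 to 22 h. For API09 against R848 at 22 h (2 members as reported) the count was 1 with a pseudocount of 1 or quantile normalization, 4 with centring, 5 with the stricter filter, and 7 with the mean over probe sets or trended variances. With a pseudocount of 1 the change from 3 to 7 h kept 4. Over 1 to 22 h, R848 against medium gave 1 member, Slc2a1, with a pseudocount of 1, quantile normalization, the stricter filter or trended variances. Leaving out arrays or hours gave 0 to 4 members for R848 against medium and 0 to 2 for apilimod against API09 over 1 to 22 h, 7 to 14 for R848 against medium at 3 h, 4 to 8 for apilimod at 3 h and 3 to 10 for the change from 3 to 7 h. The cause was not tested.

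Counts over all tested genes moved by over 1.5 times as follows. The minimum of 1 left 52, 364 and 696 for R848 against medium at 1, 3 and 7 h and 319 higher and 529 lower at 22 h, 271, 550 and 607 for apilimod against the controls at 3, 7 and 22 h, and 262, 565 and 689 for apilimod against API09. It left 6 for API09 against R848 at 22 h, 157 in medium, 209 and 582 for the changes, and 71 for R848 over 1 to 22 h. That last count, 124 as reported, was 62 with no filter, 208 with the stricter one, 205 with quantile normalization, 11 with no hour block and 14 to 1162 with arrays or hours left out. Apilimod against API09 over 1 to 22 h gave 543 genes without the 1 h arrays and 0 in the other leave-outs. API09 against R848 at 22 h gave 1226 with quantile normalization, and trended variances gave 1 for apilimod against the controls and 2 against API09 at 1 h, and 1 for API09 at 7 h. With single arrays left out, counts ran from 63 to 128 and 1274 to 3028 for R848 against medium at 1 and 3 h. They ran from 782 to 1870 for apilimod at 3 h, 1371 to 4313 in medium, 337 to 1182 for the change from 3 to 7 h and 1727 to 4565 from 7 to 22 h. The arms were paired by hour in the fit over 1 to 22 h, and the labels give no replicate numbers by which arrays within an hour could be paired. Signal over background limits the dim members Egln3 and P4ha2. Without the filter P4ha2 was called with apilimod at 22 h (0.43, adjusted p 0.00305).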

Other observations

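Genes around Myc and the nutrient sensor mTORC1, both known to steer glycolysis, were read as well, and 13 were tested. Apilimod raised 4, 1 and 3 of them at 3, 7 and 22 h (30.8%, 7.69% and 23.1%, against 5.08%, 9.81% and 20.2% of all tested genes). It lowered 1, 3 and 1 (7.69%, 23.1% and 7.69%, against 4.13%, 9.82% and 14.3%). With so few genes these shares are given as a description. Myc, a transcription factor gene, was higher in the R848 controls than in medium by 1.38 ± 0.14, 2.27 ± 0.14 and 2.26 ± 0.14 at 3, 7 and 22 h. With apilimod it fell by 0.96 relative to the R848 controls at 7 h (adjusted p 0.000429). Ddit4, which encodes an inhibitor of mTORC1 and is also a HIF target, rose with apilimod by 1.87 ± 0.17 at 3 h and 1.56 ± 0.17 at 7 h, and by 2.72 ± 0.17 in medium from 0 to 22 h. Txnip, whose product restrains glucose uptake, had apilimod differences of -0.65 ± 0.09 and -1.04 ± 0.09 at 7 and 22 h.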
